A study of Mus musculus with 8 samples.

Results

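The genes described here are markers of hematopoietic stem cells and multipotent progenitors, measured in granulocyte-macrophage progenitors (GMP) of mice that lack Ssb1 and Ssb2 (DKO) and of wild-type (WT) control mice. They are 9 of the 16593 genes with a symbol, Cd34, Cd27, Cd48, Slamf1, Tgm2, Meis1, Mecom, Procr and Hlf, taken with every probe whose annotated symbol is one of these names. They have 15 such probes among the 25697 in the deposited intensity table. All mice were female C57BL/6, and each group has 4 samples, each hybridised to 1 single-colour Illumina MouseRef-8 v2.0 array. Cells were gated on low lineage markers, presence of c-Kit, absence of Sca-1, and high surface levels of CD34 and of the Fc gamma receptors II and III. The sources used here give neither the ages, nor how and in which cells the genes were deleted, nor whether mice were pooled. Whether each sample is a mouse of its own is not stated either, and the p-values below therefore describe sample-to-sample spread that could be technical. Ssb1 and Ssb2 encode proteins that bind single-stranded DNA, and the series title places the data in a study of what they do in adult stem cells.

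Blood formation starts from stem cells that can renew themselves and passes through multipotent progenitors to lineage-committed cells such as GMP, the source of granulocytes and monocytes. Genes of the stem cell state are turned down along this path at different points. Cd34, a sialomucin of the cell surface, and Cd27, a receptor of the tumour necrosis factor family, are still carried by many committed progenitors. The receptors Slamf1 and Cd48 of the SLAM family are used together to tell stem cells from later progenitors in the mouse, and Procr, the endothelial protein C receptor, marks stem cells at the surface. Meis1, Mecom and Hlf are transcription factors of the stem cell program, and Tgm2 is a transglutaminase that crosslinks proteins.

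In DKO GMP, Cd34 and Cd27 fell, with every DKO array below every control array on their tested probes. Tgm2 fell near the limit of detection, and Cd48 and Meis1 had lower means that did not pass the test. Slamf1 and Hlf were not above background on any array. Values are normalized log2 signals, and a probe counts as detected on an array where its detection p-value is under 0.05. A probe was tested with limma if it was detected on 4 or more of the 8 arrays, with Benjamini-Hochberg adjustment over all 10856 that were and a threshold of 0.05. Of the 15 probes, 7 were tested, and they stand for 6 of the 9 genes. Among these 7, 4 probes of 3 genes fell (2 of them of Cd27), 0 rose and 3 did not pass, where 12.4% of all tested probes fell and 10.4% rose. Their median log2 difference was -0.84 and that of all tested probes was -0.01. For 5 of the 7, all DKO arrays lay below all control arrays, where 14.5% of all tested probes were lower without overlap and 27.6% differed without overlap in either direction. The filter can let a probe in through its brighter group, as it did for Tgm2. Of the 5 probes detected on all 8 arrays, which did not depend on it, 3 fell, 1 of Cd34 and 2 of Cd27. All 5 had the lower mean in DKO. Of the 8600 tested probes detected on all 8 arrays, 11.5% fell. In sorted samples measured in bulk, fewer cells of a type and less RNA per cell cannot be told apart.

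Stretches of 250 bases before the start that RefSeq's promoter table uses for Cd34, Cd27 and Meis1 are shown because these 3 genes varied together over the DKO arrays, as described further on. They are RefSeq sequences of build GRCm38.p6, written 5′ to 3′ on the gene's strand, with the ETS core GGAA, or TTCC where it lies on the other strand, in capitals. RefSeq places Cd34 at chr1:194938821-194961292, just after its window. It places Cd27 at chr6:125232620-125237136 and Meis1 at chr11:18880428-19019651, so the Cd27 window lies partly and the Meis1 window wholly within the outer bounds of the gene.
Cd34, chr1:194938571-194938820, plus strand: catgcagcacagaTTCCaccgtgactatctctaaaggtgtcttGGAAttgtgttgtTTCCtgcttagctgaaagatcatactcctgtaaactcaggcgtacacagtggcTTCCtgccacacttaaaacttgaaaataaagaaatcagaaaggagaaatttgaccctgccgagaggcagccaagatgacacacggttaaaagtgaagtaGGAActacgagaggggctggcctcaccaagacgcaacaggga
Cd27, chr6:125237028-125237277, minus strand: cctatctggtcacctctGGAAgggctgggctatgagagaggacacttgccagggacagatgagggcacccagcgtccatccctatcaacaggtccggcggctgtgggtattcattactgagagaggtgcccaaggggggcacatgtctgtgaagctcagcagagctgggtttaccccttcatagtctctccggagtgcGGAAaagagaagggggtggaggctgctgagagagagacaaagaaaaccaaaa
Meis1, chr11:19018970-19019219, minus strand: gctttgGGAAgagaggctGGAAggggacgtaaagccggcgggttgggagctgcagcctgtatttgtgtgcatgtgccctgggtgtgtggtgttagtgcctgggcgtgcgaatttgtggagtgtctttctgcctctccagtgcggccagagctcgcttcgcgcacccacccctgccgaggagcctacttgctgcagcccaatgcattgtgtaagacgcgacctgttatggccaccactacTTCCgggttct
The core occurs 5 times before Cd34, 2 times before Cd27 and 3 times before Meis1, and 93.4% of 32851 mouse windows of the same length hold it. The E-box CANNTG, which reads the same on both strands, occurs 3 times before Cd27, 1 time before Meis1 and 0 times before Cd34, and 66.2% of the windows hold it. The RUNX core TGTGGT, searched on both strands, occurs 1 time before Meis1 and in neither of the other two, against 14.0% of the windows. The GATA letters AGATAA, in 9.99% of the windows, occur in none of the 3 on either strand. These are matches of letters only. Promoter windows were found for 8 of the 9 genes, and Tgm2 was not among them.

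Cd34 was the member with the smallest p. Its probe ILMN_2714360 was detected on all 8 arrays. The raw intensities on DKO arrays 1 to 4 were 161.7, 346.4, 403.7 and 316.5, against 779.6, 974, 794.7 and 817.9 on the control arrays. After normalization the DKO arrays read 7.38, 8.08, 8.31 and 7.59 and the control arrays 9.36, 9.18, 9.16 and 9.34. Every DKO array lay below every control array, and the control arrays lay close together while the DKO arrays were spread. The DKO mean of 7.84 ± 0.43 (SD, n = 4) compares with a control mean of 9.26 ± 0.10 (SD, n = 4). Cd34 was therefore lower by 2.68-fold, a log2 difference of -1.42 ± 0.20 (SE; limma adjusted p = 0.000858), with a 95% interval from 1.98-fold to 3.62-fold. It was the only member that passed a test for a change of at least 1.5-fold (limma adjusted p = 0.037). Surface CD34 was a criterion of the sort, so these are cells gated as CD34-high in both groups.

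Cd27 fell by both of its detected probes, which differ in brightness. The brighter, ILMN_3128992, read 8.26, 9.47, 10.53 and 8.62 on the DKO arrays and 11.18, 10.99, 10.85 and 11.15 on the control arrays. The highest DKO array, DKO 3, stayed below the lowest control array. Means were 9.22 ± 1.01 (SD, n = 4) and 11.04 ± 0.15 (SD, n = 4), a fall of 3.53-fold (-1.82 ± 0.40 SE on the log2 scale; adjusted p = 0.00893 by limma). The dimmer probe, ILMN_1233589, read 6.12, 7.01, 7.65 and 6.11 on the DKO arrays and 8.29, 7.98, 8.22 and 7.98 on the control arrays, 2.63-fold lower (-1.40 ± 0.31 SE on the log2 scale; adjusted p = 0.00927 by limma). The DKO and control arrays did not overlap on this probe either. With no background correction its log2 difference was -0.78, and with the authors' processed values it was -0.75, past the threshold in both. The remaining Cd27 probe, ILMN_3052501, was detected on control 3 alone and was not tested.

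**Figure D1:**
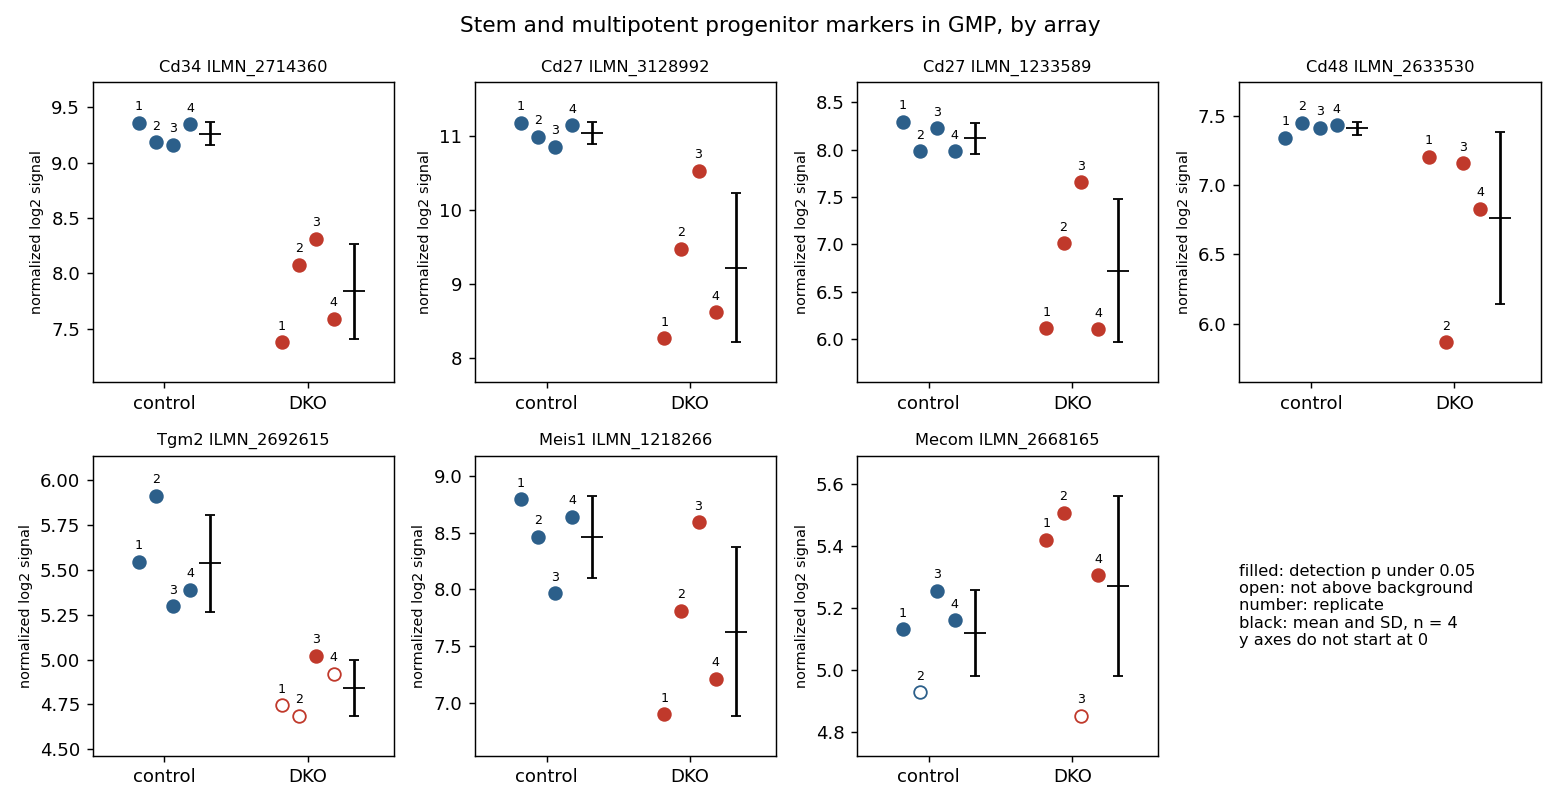
Normalized log2 signal of the 7 tested probes on each of the 4 control and 4 DKO arrays, with the mean and SD of each group beside the points. For Cd34 and both Cd27 probes every DKO array lies below every control array, while for Meis1 the array DKO 3 lies among the control arrays.

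Cd48, the SLAM family receptor that multipotent progenitors gain as they leave the stem cell state, had a lower mean in DKO that did not pass. The DKO arrays read 7.20, 5.87, 7.16 and 6.83 and the control arrays 7.34, 7.45, 7.41 and 7.43. The control arrays were nearly level and lay above all DKO arrays, of which DKO 2 was the lowest. The log2 difference was -0.64 (SE 0.26, limma adjusted p = 0.0943), with a 95% interval from -1.21 to -0.08. Without DKO 2 it was -0.34 (limma adjusted p = 0.0995), and without DKO 1 it was -0.79 and passed (limma adjusted p = 0.0489). It also passed with arrays aligned by medians (-1.14, limma adjusted p = 0.00503), while with no background correction it was -0.32. Slamf1, whose product CD150 marks stem cells, has 2 probes, and neither was detected on any of the 8 arrays. Its ILMN_2721571 probe averaged 4.41 in DKO and 4.42 in control, and ILMN_1249863 averaged 4.40 and 4.39. At this sensitivity no difference in Slamf1 was detectable. Procr, on ILMN_2904658, was detected on 3 of 8 arrays, DKO 2, control 1 and control 4, and was not tested. It read 5.24, 6.10, 4.69 and 4.99 in DKO and 5.04, 4.85, 4.55 and 5.20 in control, and the groups overlapped.

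**Figure D2:**
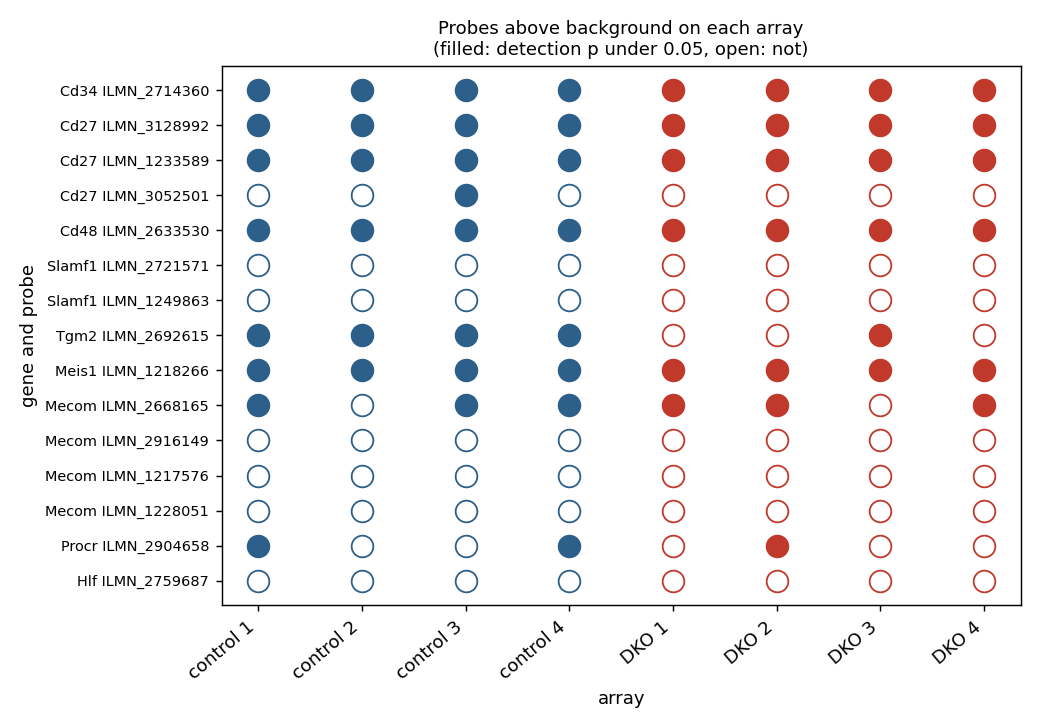
Detection of each of the 15 probes on each array, with a filled point where the detection p-value is under 0.05. Cd34, Cd48, Meis1 and 2 Cd27 probes are filled on all 8 arrays, while both Slamf1 probes, Hlf and 3 of 4 Mecom probes are open on all 8.

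Tgm2, the tissue transglutaminase, was detected on all 4 control arrays and on 1 DKO array, DKO 3. Its ILMN_2692615 signal was 4.74, 4.69, 5.02 and 4.92 in DKO and 5.54, 5.91, 5.30 and 5.39 in control. All DKO arrays lay below all control arrays, at levels near background. It was 1.62-fold lower (-0.69 ± 0.16 SE on the log2 scale; adjusted p = 0.0112 by limma). The call was lost with no background correction (log2 difference -0.19, limma adjusted p = 0.0777), on the values the authors processed (-0.17, adjusted p = 0.0856 by limma) and without DKO 1 and DKO 2 together (-0.57, limma adjusted p = 0.0594).

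Among the transcription factors, Meis1, a homeodomain protein that binds DNA with Hox and Pbx partners, was detected on all 8 arrays by ILMN_1218266. The DKO arrays read 6.90, 7.81, 8.59 and 7.21 and the control arrays 8.79, 8.46, 7.96 and 8.64. On this probe the groups overlapped, since DKO 3 exceeded control 2 and control 3. The log2 difference was -0.84 (SE 0.33, limma adjusted p = 0.0894), with a 95% interval from -1.56 to -0.11, and it did not pass. It passed without DKO 3 (-1.16, limma adjusted p = 0.0111) and, with all arrays kept, when arrays were aligned by medians (-1.34, limma adjusted p = 0.00562). Mecom, which encodes the zinc finger factor EVI1, had 1 tested probe of 4. Its ILMN_2668165 signal was 5.42, 5.51, 4.85 and 5.31 in DKO and 5.13, 4.93, 5.26 and 5.16 in control, detected on 3 arrays of each group. The groups overlapped, and the log2 difference was 0.15 (SE 0.16, limma adjusted p = 0.532), with a 95% interval from -0.21 to 0.51, and its sign turned with arrays aligned by medians (-0.0056) and without DKO 1 and DKO 2 (-0.041). The other 3 Mecom probes were detected on 0 of 8 arrays. Hlf, a bZIP factor of stem cells, was also detected on 0 of 8 arrays, with means of 4.61 and 4.64. When dim probes were kept, 8.63% of all probes were called, and the 8 untested probes had limma adjusted p between 0.522 and 0.971.

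Over all tested probes the DKO arrays were less alike than the control arrays. Correlations between arrays of a group ran from 0.966 to 0.986 in DKO and from 0.987 to 0.992 in control. Of the DKO arrays, DKO 3 was nearest to the control arrays, with correlations from 0.9682 to 0.9748. DKO 1 was farthest, from 0.9486 to 0.9523. The SD was larger in DKO for 73.0% of all tested probes and for 6 of the 7 tested here, Tgm2 being the exception. Relative to the control mean, the brighter Cd27 probe differed by a log2 value of -2.78 on DKO 1, -1.57 on DKO 2, -0.51 on DKO 3 and -2.43 on DKO 4. Cd34 stood at -1.88, -1.18, -0.95 and -1.67 on the same arrays. For Meis1 the values were -1.56, -0.66, 0.13 and -1.25. All 3 genes thus had DKO 3 highest, DKO 2 next, DKO 4 below it and DKO 1 lowest. DKO 3 and DKO 1 were also nearest to and farthest from control over all tested probes, so these ends of the order are not particular to them. The dimmer Cd27 probe kept the order except that DKO 1 and DKO 4 stood level at -2.00 and -2.01. Cd48 followed another order, with DKO 1 highest at -0.20 and DKO 2 lowest at -1.54. Mecom was lowest on DKO 3, at -0.27.

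**Figure D3:**
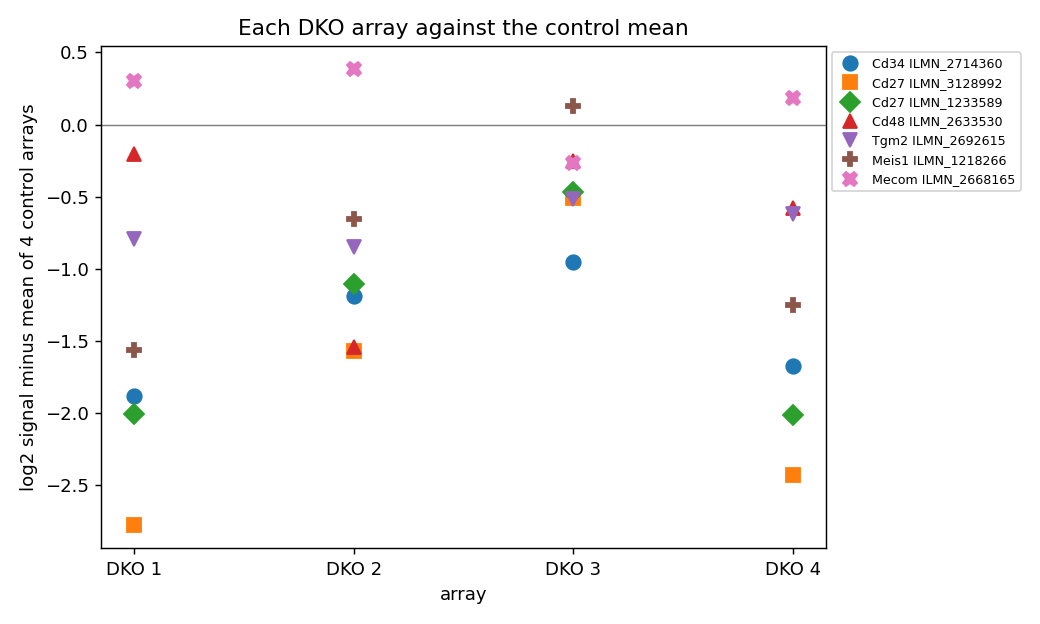
Log2 signal of each tested probe on each DKO array minus its mean over the 4 control arrays, where 0 is the control mean. Cd34, both Cd27 probes and Meis1 lie highest on DKO 3, where Meis1 reaches 0.13, and Cd48 lies lowest on DKO 2.

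Array quality and cell type markers were set beside this order. DKO 1 and DKO 2 had the fewest detected probes, 9774 and 9867, against 10740 to 11227 on the other arrays, and DKO 1 had the lowest mean raw intensity, 380. Without DKO 1 and DKO 2 together, Cd34 differed by -1.31 (limma adjusted p = 0.00247) and the brighter Cd27 probe by -1.47 (limma adjusted p = 0.0336). All 12 measured GMP identity genes, among them Mpo, Elane and Prtn3, were detected on every array. Of them, 10 did not pass the test, which does not show that they were unchanged, where 22.7% of all tested probes were called. The other two, Cd34 itself and the receptor gene Csf2ra (-0.68 on the log2 scale, limma adjusted p = 0.00814), fell, and Fcgr3, which encodes a receptor used in the gate, differed by -0.63 (limma adjusted p = 0.0829). The summed signal of all 12, in which the brightest probes weigh most and which is the normalized linear signal over all their probes less the offset of 16, was 153400 to 160800 in DKO and 158500 to 173400 in control. The summed signal of 9 basophil, mast cell and eosinophil genes, of which at least 8 were detected on each array, was 10970, 21690, 25180 and 9551 on DKO arrays 1 to 4 and 22530 to 34770 in control, so it too was highest on DKO 3 and DKO 2. For 6 measured monocyte and macrophage genes it was 196 to 463 in DKO and 2144 to 2955 in control, with 2 to 4 of them detected on the DKO arrays, 5 on each control array and Ccr2 on none. For 11 megakaryocyte and erythroid genes it was 749 to 2302 and 1547 to 2404, with 7 or 8 detected on the DKO arrays, 10 on each control array and Gata1 on none. For 10 lymphoid genes it was 1026 to 1297 and 1721 to 2390, with 1 or 2 detected on the DKO arrays, 2 to 5 on the control arrays, and Cd3e, Cd3g, Dntt, Gzma and Pax5 on none. For 9 neutrophil genes it was 41510 to 54840 and 35550 to 38700, with 4 to 7 detected on the DKO arrays, 5 or 6 on the control arrays and Mmp8 on none. For 6 endothelial genes it was 152 to 314 and 280 to 365, with 1 to 3 detected on the DKO arrays, 3 or 4 on the control arrays and Cdh5 on none. Among the DKO arrays, monocyte and macrophage signal was also highest on DKO 2 and DKO 3, at 463 and 348.5. Endothelial signal was highest on the same arrays, at 279.9 and 313.7. Megakaryocyte and erythroid signal was highest on DKO 3 and DKO 1, and lymphoid signal on DKO 1 and DKO 3. Neutrophil signal was highest on DKO 1, at 54840, and lowest on DKO 3, at 41510. GMP identity signal was also lowest on DKO 3. By gene, 2 of 6 tested neutrophil genes rose, Lcn2 (log2 difference 3.15) and S100a9 (0.66), and 4 did not pass. All 5 tested monocyte and macrophage genes and both tested lymphoid genes fell. Of 10 tested megakaryocyte and erythroid genes 3 fell, of 9 basophil, mast cell and eosinophil genes 1 (Hdc), and of 3 endothelial genes 0. Over all tested probes 12.4% fell and 10.4% rose. The part of these cell types and of array quality in the falls of Cd34 and Cd27 was not tested.

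Genes tied to the members by family or partnership went in different directions. Of 93 such genes, 77 had a named probe here and 40 were tested, each by its brightest tested probe. Of these, 5 rose, 6 fell and 29 did not pass, with a median log2 difference of -0.02, where 22.7% of all tested probes were called. In the bZIP family of Hlf, the clock output factor Dbp was 2.53-fold lower, with DKO arrays at 6.37, 6.62, 7.20 and 6.73 and control arrays at 8.38, 8.15, 7.93 and 7.81 (-1.34 ± 0.19 SE on the log2 scale; adjusted p = 0.00101 by limma). Tef, the third factor of that family, fell 1.62-fold (-0.70 ± 0.18 SE on the log2 scale; adjusted p = 0.0178 by limma), and without control 1 it no longer passed (limma adjusted p = 0.0515). Nfil3, a repressor that binds the same kind of DNA sites, rose by 0.42 on the log2 scale (limma adjusted p = 0.03), but with arrays aligned by their medians, which moved the median of all tested probes to -0.40, its difference was -0.09. The Nfil3 call was lost in 8 of 19 alternatives, that one included. Neither Dbp nor Nfil3 overlapped between the groups. With no background correction Dbp differed by -0.78 and Tef by -0.35, both still past the threshold. With a minimum change of 1.5-fold Dbp (limma adjusted p = 0.0526) and Tef lost their calls.

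Among SLAM receptors and adaptors, 4 were tested, Cd48 included. Slamf9 rose 2.55-fold, with DKO arrays at 6.67, 6.19, 5.90 and 6.61 and control arrays at 5.09, 5.12, 4.71 and 5.06 (1.35 ± 0.19 SE on the log2 scale; adjusted p = 0.000859 by limma). It was detected on all 4 DKO arrays and on 2 control arrays, and the groups did not overlap. With no background correction Slamf9 differed by 0.43, and by 0.39 on the values the authors processed, past the threshold in both. Cd84 and Ly9 differed by -0.34 and -0.12 and did not pass. The other tested Ly9 probe, ILMN_1213596, differed by -0.54 and did not pass either (limma adjusted p = 0.092). Among transglutaminases, Tgm1 rose 2.61-fold (1.38 ± 0.24 SE on the log2 scale; adjusted p = 0.00289 by limma), while F13a1, the A subunit of coagulation factor XIII, fell 2.11-fold (-1.08 ± 0.22 SE on the log2 scale; adjusted p = 0.00551 by limma). Tgm1 was detected on all 4 DKO arrays and on 3 control arrays. For Tgm1 the difference was 0.49 with no background correction and 0.45 on the authors' values, past the threshold in both, and with a minimum change of 1.5-fold its call was lost (limma adjusted p = 0.117), as was that of F13a1 (limma adjusted p = 0.415). In the protein C pathway of Procr, the thrombin receptor thrombomodulin, Thbd, was 2.48-fold lower, with DKO arrays at 6.02, 6.07, 6.48 and 6.35 and control arrays at 7.73, 7.43, 7.24 and 7.77 (-1.31 ± 0.17 SE on the log2 scale; adjusted p = 0.000495 by limma). With no background correction Thbd differed by -0.65 and still passed. F2r, the thrombin receptor PAR1, differed by 0.16 and did not pass.

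**Figure D4:**
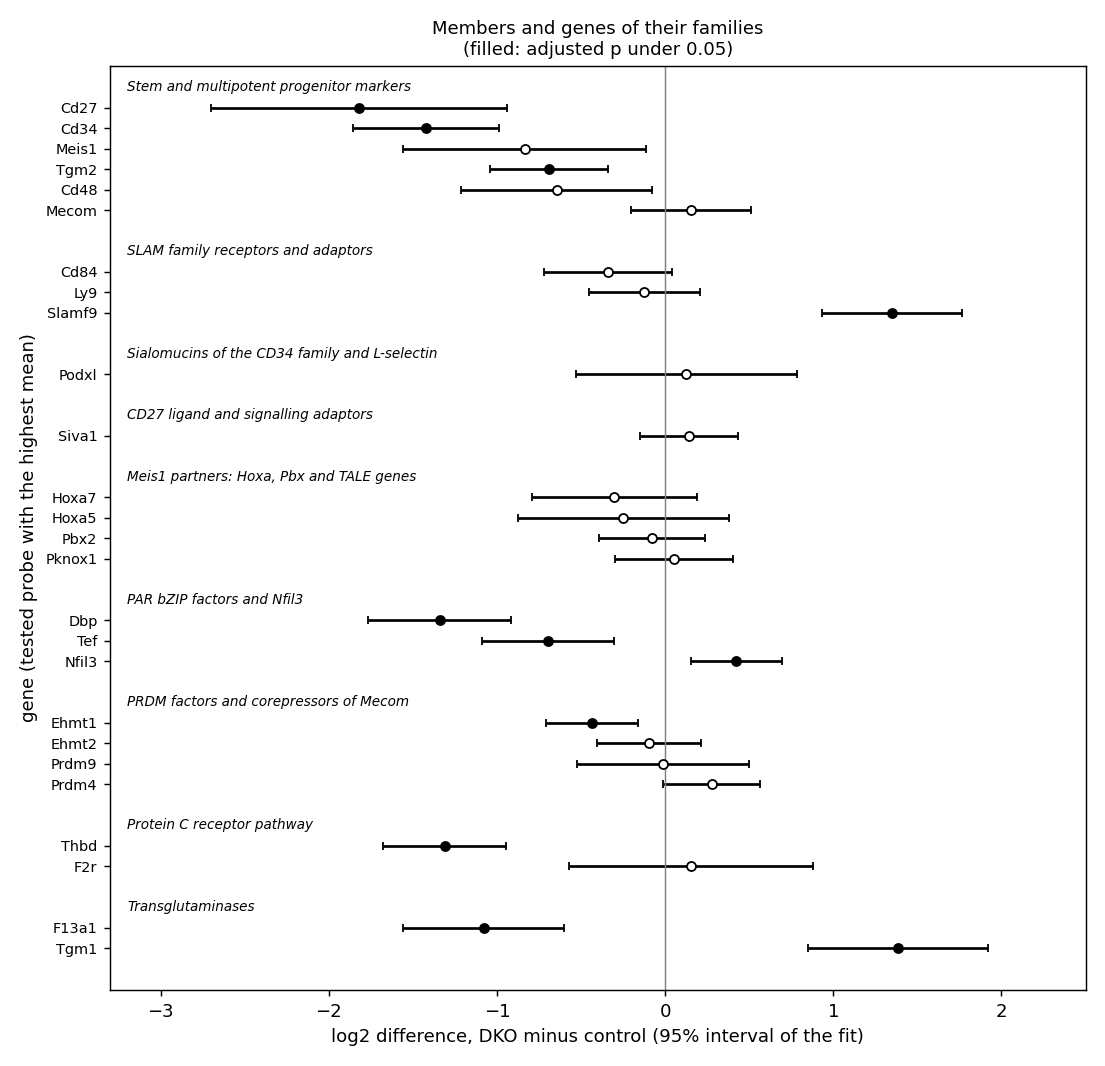
Log2 difference between DKO and control with the 95% interval of the limma fit, for the tested members and for tested genes of their families and partners, filled where the adjusted p is under 0.05. Dbp, Tef, Thbd and F13a1 lie below 0 and Slamf9, Tgm1 and Nfil3 above it, Nfil3 turning to -0.09 with arrays aligned by medians, while the Meis1 partners Hoxa5, Hoxa7, Pbx2 and Pknox1 have intervals that include 0.

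Of the 4 tested Hox, Pbx and TALE partners of Meis1, 0 passed. Hoxa7 differed by -0.30, Hoxa5 by -0.25, Pbx2 by -0.08 and Pknox1 by 0.05. The corepressor gene Ehmt1, a histone methyltransferase that acts with EVI1, fell by 0.43 on the log2 scale (limma adjusted p = 0.0287), and its other tested probe did not pass (limma adjusted p = 0.306). The Ehmt1 call was lost in 7 of 19 alternatives. Podxl, the sialomucin related to Cd34, and Siva1, which binds the tail of CD27, differed by 0.13 and 0.14 and did not pass, and Cd70, the ligand of CD27, was detected on 0 of 8 arrays.

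Of 20 tested other stem and multipotent progenitor genes, 2 rose, 1 fell and 17 did not pass, with a median log2 difference of 0.12, while of all tested probes 10.4% rose and 12.4% fell. Thy1, a surface glycoprotein used to grade stem cells, rose 2.80-fold, with DKO arrays at 5.86, 7.16, 7.22 and 6.48 and control arrays at 5.52, 5.24, 4.92 and 5.11 (1.49 ± 0.28 SE on the log2 scale; adjusted p = 0.0041 by limma). The groups did not overlap, and Thy1 was detected on 3 control arrays. Its difference was 0.54 with no background correction and 0.49 on the authors' values, past the threshold in both, and the call was lost with a minimum change of 1.5-fold (limma adjusted p = 0.127). Cdkn1c, the cell cycle inhibitor p57, differed by 1.15 (SE 0.36, limma adjusted p = 0.0411). It was detected on 3 DKO and 2 control arrays, and the groups overlapped. The Cdkn1c call was lost in 11 of 18 alternatives. These included leaving out any array except DKO 2 (limma adjusted p from 0.0652 to 0.106) and no background correction (limma adjusted p = 0.0513). Txnip fell 2.15-fold (-1.10 ± 0.15 SE on the log2 scale; adjusted p = 0.000859 by limma), and its call was lost with a minimum change of 1.5-fold (limma adjusted p = 0.104). Msi2 differed by 0.63 (limma adjusted p = 0.0516) and did not pass. Gfi1b differed by -0.72 (limma adjusted p = 0.0614) and did not pass, though its groups did not overlap. Gata2, a factor of stem cells and of mast cells and basophils, differed by -0.90 (limma adjusted p = 0.127). Its DKO arrays at 8.29, 9.60, 9.83 and 7.82 were highest on DKO 3 and DKO 2. Msi2 followed another order, with DKO arrays at 8.13, 7.30, 7.77 and 7.28. Flt3, Erg, Fgd5, Esam, Mycn and Prdm16 were among 13 genes of this list detected on no array.

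The genes whose signal over the 8 arrays was most like that of a member were found by Pearson correlation over all tested probes, as a description, since the arrays share the difference between groups. For Cd34 they were Il16, Gpr171, Il17rb, Pink1 and Hdc, with correlations from 0.987 to 0.993. Hdc, the histidine decarboxylase of basophils and mast cells, is also in the basophil, mast cell and eosinophil list, whose other 8 tested genes did not pass. For the brighter Cd27 probe they were Fam214a, Abhd14b, Prxl2a, Map1lc3b and St8sia4, from 0.984 to 0.993, and for the dimmer one Stx3, St8sia4, Hbp1, Fam214a and Map1lc3b, so Fam214a, Map1lc3b and St8sia4 were named by both probes. For Tgm2 they were Ank1, Smap2, Ids, Atp6v1g2 and Rcan3, from 0.968 to 0.978.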

How the data were processed

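RNA from 4 DKO and 4 control GMP samples was extracted on RNeasy columns, and biotinylated cRNA was made with the TotalPrep kit, per the labels' protocols. Per the submitters' processing notes GenomeStudio was used, with no version given. The deposited table holds linear bead intensity values, not background-subtracted, and a detection p-value beside each per the file headers. The authors' deposited value table holds log2 values which, judged from the values themselves, are normalized between arrays and centred per probe. No source used here gives the rule. Their differences followed quantile-normalized log2 intensities with r from 0.9992 to 0.9995 and slopes from 0.962 to 0.968, and column medians lay between -0.0044 and -0.0005. Direction and scale were thus found from the intensities, and the centre stays unknown.

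Here neqc (limma 3.58.1, R 4.3.3; normexp background, offset 16, quantile) was applied to the intensities, which were compared with lmFit and eBayes, without covariates. Symbols come from the platform annotation: 23978 probes had 1, 0 had several and 1719 had none. RefSeq of GRCm38.p6 matched 23962 and changed 0. For genes with several probes, lists use the tested probe with the highest mean. Every member probe is named, and up to 4 tested genes per related list, taken by small p. Among the other stem and multipotent progenitor genes, Gfi1b and Gata2 are named beyond these. The members and lists were chosen with earlier results of these data known. The fit was tested on simulated data. Same-numbered samples were not treated as pairs, since the labels name no pairs. Their deviations correlated at 0.192, 0.026, -0.111 and 0.195, against -0.173 to 0.125 for samples of different number. These values do not settle whether samples were paired. Leaving out arrays kept the normalized values and the tested probes. 12 kinds of alternative were tried.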

Additional observations from a re-analysis of the deposited data

Results flagged for a closer look

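Within groups of 4 arrays, 30 sets of values of the 15 probes were examined for an array far from the others, and 2 were found, where chance flags about 1 in 20. Both belong to probes that were not above background on any array. Hlf read 4.44 on DKO 1, while the other DKO arrays lay between 4.66 and 4.68. The Mecom probe ILMN_1228051 read 4.53 on control 2, while the other control arrays lay between 4.40 and 4.42.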

How the results depend on the processing

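The 7 tested member probes were examined under 19 alternatives, which gave 130 values. Of these, 120 stayed on the same side of the threshold, 6 lost the call and 4 gained it. In 2 of the 120, both of Mecom, which was not called, the sign turned, and 0 called values changed sign. Cd34 passed in all 19. The number of member probes that fell was 4, it was 1 with a minimum change of 1.5-fold, and it ranged from 4 to 5 when 1 array was left out, while 0 rose. Tgm2 lost its call in 4 settings and both Cd27 probes in 1, the minimum change of 1.5-fold, and Meis1 (log2 difference -1.34) and Cd48 (-1.14) passed with arrays aligned by medians.

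Over all tested probes 1125 rose and 1344 fell. The counts were 148 and 2335 with arrays aligned by medians, 5.96% higher in place of 45.6%, and 100 and 155 with a minimum change of 1.5-fold. Leaving out 1 array gave 665 to 1161 higher and 864 to 1354 lower, with 665 and 864 without control 2 and 742 higher without control 1. Among the related genes 5 rose and 6 fell. The number higher was 2 with probes detected on all arrays at p under 0.01 and 1 with a minimum change of 1.5-fold, and the number lower was 10 with arrays aligned by medians and 1 with the minimum change. Leaving out 1 array gave 3 to 6 higher and 4 to 8 lower. Nfil3 turned to -0.093 with arrays aligned by medians. With the replicate number as a block, 1102 probes rose and 1318 fell, 4 member probes fell, and Nfil3 (limma adjusted p = 0.0639) and Ehmt1 (0.0557) lost their calls. Signal over background limits Slamf1, Hlf, Procr and most Mecom probes.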
